A study of Mus musculus with 24 samples.

Results

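The 10 genes described here are p53 targets and inhibitors of the cell cycle: Cdkn1a, Cdkn2b, Cdkn2c, Mdm2, Gdf15, Ccng1, Phlda3, Zmat3, Bax and Eda2r. They were chosen by name, and their values were read in every liver of the series. All 10 were found among the 21755 genes of the p16-3MR table, and 7 could be read among the 12643 labels of the wild-type table. RNA was sequenced from 24 mouse livers, 12 from p16-3MR mice and 12 from wild-type mice, with 3 livers of each sex given GCV and 3 given VEH in either genotype. GCV is ganciclovir, which the labels give at 150 mg/kg in pH11 water, and VEH is the pH11 water alone. Both were given into the peritoneum on 5 days in a row each month. p16-3MR mice, treated from 16 to 18 months of age, carry a bacterial artificial chromosome in which a 3MR cassette sits at p16Ink4a, so that cells with an active p16 promoter make a viral thymidine kinase that turns GCV toxic. VEH-treated p16-3MR mice carry the same transgene. Wild-type mice lack it, were treated from 6 months of age although the labels call them age-matched, and gave their livers after 3 months. The p16-3MR libraries are batch 1 and the wild-type libraries batch 2, so genotype, batch, age and length of treatment cannot be told apart, and the genotypes were not tested against each other.

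Cells with damaged DNA or other stress stabilise p53, a transcription factor that switches on genes for cell-cycle arrest, DNA repair, apoptosis and its own removal. Cdkn1a encodes p21, which inhibits cyclin-dependent kinases and is, beside p16 from Cdkn2a, the inhibitor most often used to recognise senescent cells. Cdkn2b and Cdkn2c encode p15 and p18, relatives of p16 that block the kinases Cdk4 and Cdk6. In liver, p21 is also known for holding back hepatocyte division after injury.

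The genes lie on 9 chromosomes (GENCODE annotation of GRCm38). Cdkn1a is at chr17:29090976-29100727 on the plus strand. Cdkn2b is at chr4:89306299-89311039 on the minus strand, 11645 bases from the neighbouring Cdkn2a at chr4:89274471-89294653, and Cdkn2c is at chr4:109660876-109667189. The other genes are Mdm2 at chr10:117688875-117710758, Gdf15 at chr8:70629393-70632456, Ccng1 at chr11:40748552-40755311, Phlda3 at chr1:135766119-135769136, Zmat3 at chr3:32334792-32366014, Bax at chr7:45461697-45466898 and Eda2r at chrX:97333840-97377216. Bax shares 915 bases with the gene model Gm45808 on the same strand, so reads could be divided between them, and Cdkn1a shares 1046 bases with AC167363.2 on the opposite strand. Whether the counting used strand is not given in the sources used here.

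The short sequence that p53 recognises was looked for in the RefSeq promoters of GRCm38.p6, each the 250 bases before to 50 after a gene's start and is shown for the genes that have it. Since the genes were chosen as p53 targets, finding it is no independent result. A p53 half-site is a run of 10 bases fitting the p53 half-site consensus, which reads the same on both strands. Promoters were at hand for 9 of the 10 genes, in 12 windows, and 4 of the 12 had a half-site, 1 each of Cdkn1a, Mdm2, Ccng1 and Bax. Of all 32851 promoters, 8.36% held one. The first of both Cdkn1a windows held a pair of half-sites at -73 and -51 from the start, 12 bases apart, and the single half-sites of Mdm2, Ccng1 and Bax lay at -186, -185 and -201. A pair with up to 13 bases between was found in 24 promoters, 0.0731% of all. A match is a description of letters only, and the 3′ ends sequenced here do not measure binding. The windows around the half-sites are shown 5′ to 3′ on the gene's strand, with the half-sites in capitals.
Cdkn1a, chr17:29090891-29090952, plus strand: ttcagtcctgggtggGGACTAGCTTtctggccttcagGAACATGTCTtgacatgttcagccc
Mdm2, chr10:117710920-117710959, minus strand: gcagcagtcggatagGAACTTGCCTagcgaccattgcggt
Ccng1, chr11:40755447-40755486, minus strand: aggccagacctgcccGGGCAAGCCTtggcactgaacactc
Bax, chr7:45467075-45467114, minus strand: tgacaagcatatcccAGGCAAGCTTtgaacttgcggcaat
A GC box, GGGCGG on either strand, was present in 7 of the 12 windows and in 35.7% of all promoters.

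Between 5005760 and 7160172 counts per p16-3MR liver and between 3084517 and 5667904 per wild-type liver fell on the genes of the tables. Levels are given as TMM CPM, the CPM of edgeR, in which a gene's count is divided by a library size corrected by the trimmed mean of M values (TMM). A total of 3 counts, taken as the floor at or below which a level is printed but not relied on, was 0.293 to 0.578 TMM CPM in 11 p16-3MR livers, 2.32 in GCV-treated female 33, and 0.516 to 0.943 in wild-type livers, for counting error only. Liver 33 stood apart from its group: 64.0% of its counts fell on mitochondrially encoded genes and its TMM factor was 0.259, against 12.3% to 22.4% and 0.850 to 1.80 in the other 11 p16-3MR livers. The 8 hepatocyte markers were present in each p16-3MR group, and their summed level was lowest in GCV-treated male 32, at 24459 TMM CPM, and in VEH-treated male 24, at 40154, against 80689 to 155679 in the other 10 livers.

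Cdkn2a, whose regulatory region drives the transgene, was at the edge of detection. GCV-treated females had 0, 0 and 3 counts and VEH-treated females 1, 4 and 3. In males there were 1, 7 and 0 counts after GCV and 1 in each liver after VEH. With 10 of 12 livers at or under 3 counts, a change of Cdkn2a after GCV was not detectable at this depth. These counts cover the gene Cdkn2a as a whole, p16 and Arf transcripts together. Its neighbour Cdkn2b was little higher, with 5, 0 and 1 counts in GCV-treated females, 2, 3 and 0 in VEH-treated females, 4, 4 and 1 in GCV-treated males and 5, 6 and 2 in VEH-treated males. At most 6 counts of Cdkn2b were seen in any liver, and all 4 groups overlapped.

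Cdkn1a was the most variable of the 10 genes in p16-3MR livers, and its spread was largest after GCV. In VEH-treated females its level was 15.8, 16.9 and 12.1 TMM CPM in livers 27, 28 and 29, from 118, 117 and 96 counts. In GCV-treated females it was 48.0, 66.4 and 1.51 TMM CPM in livers 31, 33 and 35, from 249, 86 and 9 counts. The treated group thus held both the 2 livers above its controls and 1 liver far below them, a range of 44.0-fold against 1.4-fold in the controls. In males the level was 31.9, 17.5 and 13.9 TMM CPM after VEH (livers 24, 25 and 26) and 17.3, 50.9 and 8.07 TMM CPM after GCV (livers 30, 32 and 34). GCV-treated males spanned 6.31-fold and VEH-treated males 2.29-fold, with the controls inside the range of the treated livers. The fitted log2 fold change after GCV was 1.34 ± 0.89 (SE) in females (edgeR's quasi-likelihood test, adjusted p = 0.722 after Benjamini-Hochberg adjustment) and 0.27 ± 0.86 in males (adjusted p = 1). The 95% intervals, -0.56 to 3.25 and -1.58 to 2.13 on the log2 scale, hold both a fall and a rise. The biological coefficient of variation fitted for Cdkn1a was 73.7%.

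**Figure D1:**
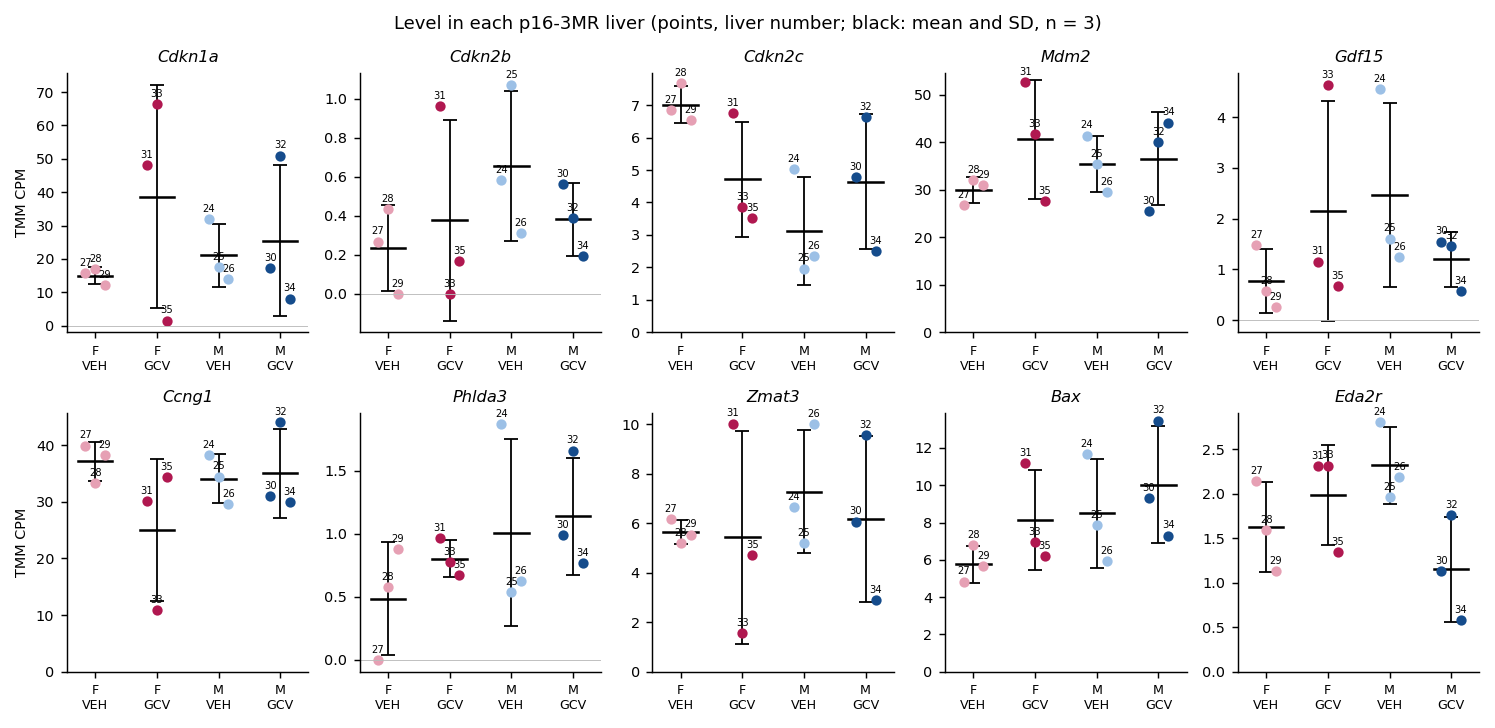
Level of each of the 10 genes in TMM CPM (vertical axes, linear) in p16-3MR livers by group, with 1 point per liver labelled with its number and the mean and SD of 3 livers in black (F, females, and M, males). Cdkn1a in GCV-treated females runs from 1.51 to 66.4 TMM CPM around controls of 12.1 to 16.9, and liver 32 of the GCV-treated males and liver 24 of the VEH-treated males are often the highest points of their groups.

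How high liver 33 stood depended on the scaling. Divided by total counts, without TMM, Cdkn1a in liver 33 was 17.2 CPM, among the 16.5, 18.4 and 13.8 CPM of the VEH-treated females, while liver 31 was at 40.8 and liver 35 at 1.49. GCV-treated male 32 and VEH-treated male 24 were higher on total counts than under TMM, at 91.9 and 52.4 CPM. On that scale, tried after the data were seen, the log2 fold change of Cdkn1a in females was 0.29, and the median over all genes moved by -0.58, so relative to the other genes Cdkn1a remained higher. Without liver 33 the log2 fold change was 0.66, and without liver 35 it was 1.93 (adjusted p = 0.235, against 0.235 to 0.999 over the alternatives tried). limma-voom, which weights each liver by its quality, gave 0.00195. A measure free of library scaling is the share of the 10 genes' counts that fell on Cdkn1a. That share was 47.8% (95% Wilson interval 40.6% to 55.0%) in liver 33, 29.3% (26.3% to 32.4%) in liver 31 and 1.87% (0.985% to 3.51%) in liver 35. In VEH-treated females it was 15.2%, 16.1% and 11.9%. Livers 31 and 33 thus also stood above and liver 35 below the 3 controls on this measure. The intervals cover counting error only, not the spread between mice. The total of the 10 genes was 180 counts in liver 33, against 482 to 1742 in the other p16-3MR livers. The share also rises where counts of the other genes fall, and in liver 33 Ccng1 had 14 counts and Zmat3 2. In males the share was 22%, 16.3% and 14.5% after VEH and 17.6%, 30% and 8.32% after GCV, with liver 32 the highest and liver 34 the lowest of the 6.

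**Figure D2:**
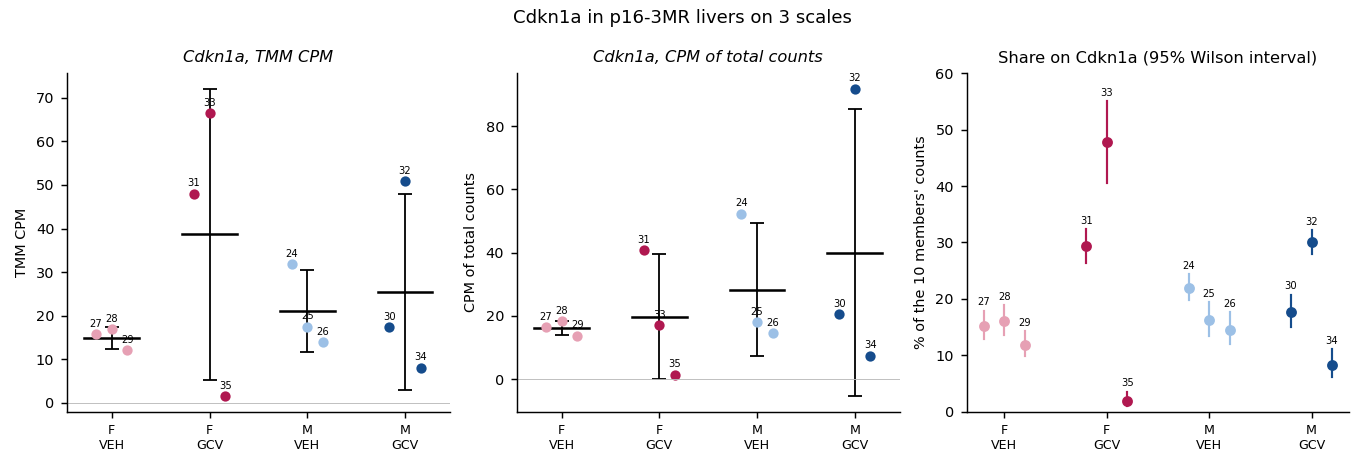
Cdkn1a in each p16-3MR liver as TMM CPM (left, mean and SD of 3 livers in black), as CPM of total counts (middle, same marks) and as the percentage of the 10 genes' counts (right, bars are 95% Wilson intervals for counting error). Liver 33 moves from the highest point at 66.4 TMM CPM to 17.2 CPM of total counts, and liver 35 is the lowest liver on each of the 3 scales.

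The genes of the p53 feedback loop varied less. Mdm2 encodes the ubiquitin ligase that removes p53. Its level was 52.6, 41.7 and 27.7 TMM CPM in GCV-treated females (livers 31, 33 and 35) and 26.8, 32.1 and 31.1 TMM CPM in VEH-treated females. In males it was 25.5, 40.0 and 44.2 TMM CPM after GCV and 41.4, 35.4 and 29.5 TMM CPM after VEH. The groups overlapped in both sexes, and over all 12 livers Mdm2 ranged 2.06-fold. The log2 fold change after GCV was 0.44 ± 0.33 in females and 0.044 ± 0.33 in males, and the female value of Mdm2 was 0.20 without liver 31 and 0.66 without liver 35. With scaling by total counts it was -0.24, where the median of all genes was -0.58. Ccng1 encodes cyclin G1, a p53 target that recruits a phosphatase to Mdm2. It was 30.1, 10.8 and 34.4 TMM CPM in GCV-treated females against 39.9, 33.3 and 38.3 TMM CPM in VEH-treated females, so that liver 33, with 14 counts, lay apart from all other livers. In males it was 31, 44.1 and 29.97 TMM CPM after GCV and 38.3, 34.5 and 29.5 TMM CPM after VEH. Its log2 fold change was -0.54 ± 0.38 in females, -0.27 without liver 33 and -0.82 without liver 35, and 0.040 ± 0.37 in males. In liver 33 Cdkn1a was thus high and Ccng1 low on the same scale.

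The genes of apoptosis and growth control showed overlapping groups with 1 exception, Eda2r in males. Bax, which permeabilises the mitochondrial outer membrane, was 11.2, 6.95 and 6.21 TMM CPM in GCV-treated females and 4.83, 6.80 and 5.66 in VEH-treated females. Bax was 9.30, 13.5 and 7.30 TMM CPM in GCV-treated males and 11.7, 7.86 and 5.94 in VEH-treated males. Treated and control livers of Bax overlapped in each sex. Eda2r, a receptor of the tumour necrosis factor family that binds ectodysplasin A2, was 1.13, 1.76 and 0.576 TMM CPM in GCV-treated males, from 8, 18 and 3 counts, and 2.80, 1.96 and 2.19 TMM CPM in VEH-treated males, from 24, 11 and 14 counts. All 3 treated males lay below all 3 control males, and 6.4% of all genes did not overlap between the groups in this comparison. Its log2 fold change was -0.97 ± 0.60 (95% interval -2.26 to 0.32, edgeR adjusted p = 1), and liver 34 was at the floor. On total counts the groups overlapped, since liver 32 was at 3.17 CPM and VEH-treated male 25 at 2.04. In females Eda2r was 2.31, 2.32 and 1.34 TMM CPM after GCV and 2.14, 1.59 and 1.13 after VEH, the value of liver 33 coming from 3 counts, at the floor.

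Zmat3, an RNA-binding protein that p53 induces, was 10.02, 1.54 and 4.70 TMM CPM in GCV-treated females and 6.17, 5.21 and 5.54 TMM CPM in VEH-treated females. The value of liver 33 came from 2 counts, under the floor, and is not relied on. In males Zmat3 was 6.06, 9.56 and 2.88 TMM CPM after GCV and 6.65, 5.18 and 10.003 TMM CPM after VEH. In females the controls lay close together. The log2 fold changes of Zmat3 were 0.031 ± 0.56 in females and -0.23 ± 0.56 in males. Both signs changed with single livers left out. The female value was -0.71 without liver 31, -0.085 without liver 28 and -0.026 without liver 29. It was also below 0 without male 30, 32 or 24 (-0.026, -0.020 and -0.017). The male value was 0.10 without liver 34 and -0.72 without liver 32. Gdf15, a secreted stress cytokine, had 6, 6 and 4 counts in GCV-treated and 11, 4 and 2 counts in VEH-treated females. In males it had 11, 15 and 3 counts after GCV and 39, 9 and 8 counts after VEH. Its log2 fold change was 1.24 ± 0.94 in females and -1.03 ± 0.85 in males, and the highest values were in 1 liver of each sex, 4.63 TMM CPM in liver 33 from 6 counts and 4.55 in liver 24 from 39. Without liver 33 the female value of Gdf15 was 0.19, and on total counts 0.20, and without liver 24 the male value was -0.20. Phlda3, an inhibitor of Akt signalling, had between 0 and 17 counts per liver, with 3 of 12 livers at or under the floor. Its groups overlapped in both sexes.

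Cdkn2c, the p18 inhibitor, lay close together in control females and lower in 2 of the 3 treated ones. It was 6.84, 7.67 and 6.54 TMM CPM in VEH-treated females and 6.75, 3.86 and 3.52 TMM CPM in GCV-treated females, from 51, 53 and 52 against 35, 5 and 21 counts. Liver 31 lay among the controls, so the groups overlapped. On total counts they did not, at 7.12, 8.33 and 7.46 CPM after VEH and 5.74, 0.999 and 3.49 CPM after GCV. On that scale 17.7% of all genes did not overlap in females, Ccng1 among them, and the log2 fold change of Cdkn2c was -1.15 where the median of all genes was -0.58. In males it was 4.79, 6.63 and 2.50 TMM CPM after GCV and 5.02, 1.96 and 2.34 TMM CPM after VEH. The log2 fold change was -0.55 ± 0.51 in females and 0.57 ± 0.50 in males, and the difference between these was -1.12 ± 0.71 (edgeR adjusted p = 0.976). Single livers moved both values of Cdkn2c, the female one from -0.35 (without liver 35) to -0.94 (without liver 31) and the male one from 0.17 (without liver 32) to 1.14 (without liver 24).

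In p16-3MR females, 0 of the 10 genes passed edgeR's test at an adjusted p under 0.05, nor did any at an unadjusted p under 0.05, except that without liver 35 Cdkn1a alone was past the unadjusted threshold (log2 fold change 1.93, edgeR adjusted p = 0.235). Of all genes, 0% passed the first and 7.37% the second, and 13.3% did not overlap between treated and control females, against 0 of the 10. Fitted values were higher after GCV for 8 genes and lower for 2, with a median log2 fold change of 0.47, beside -0.012 over all genes with more than 3 counts in each group, the genes for which a fold is given. Over the 7 genes with a mean of at least 10 counts the median was 0.26, beside -0.054 over all genes with that mean. The medians depended on liver 31, and the tally on it and on other single livers. Without liver 31 Zmat3 was at -0.71, and Mdm2, Bax and Eda2r fell to 0.20, 0.18 and 0.08, while Gdf15 rose to 1.55. Zmat3 was also below 0 without VEH-treated female 28 (-0.085) or 29 (-0.026). With scaling by total counts the values of Mdm2, Zmat3, Bax and Eda2r were below 0 (-0.43 to -0.11), but the median of all genes was then at -0.58, so that these 4 stayed above it. In males 0 of 10 passed either threshold, with 0% and 1.91% of all genes passing, and the median log2 fold change was 0.042, beside 0.043 over all genes with a fold. The female minus the male response passed neither threshold for any of the 10, with 0% and 3.78% of all genes passing. The lowest adjusted p of the 10 for this difference was 0.976, that of Gdf15 among them, whose value in each sex turned on 1 liver as given above. DESeq2 called 0 in these 3 comparisons, where in females it gave an adjusted p to 8 of the 10, not to Cdkn2b and Phlda3, and limma-voom called 0 at an adjusted p under 0.05. At an unadjusted p under 0.05, limma-voom had Cdkn2c and Eda2r in males (adjusted p = 0.14 and 0.163) and Cdkn2c in the difference between the sexes (adjusted p = 0.266). The shares of all genes given above are edgeR's. The share past that threshold in limma-voom is not given here, so these counts have no baseline. At an adjusted p under 0.05 limma-voom called 145 of all genes in males. The intervals were wide: a change of Mdm2 outside -0.28 to 1.15 in females, or of Bax outside -0.38 to 1.39, lay beyond the 95% interval, whereas for Cdkn1a, Cdkn2b, Gdf15 and Phlda3 the upper bound was 2.90 or more on the log2 scale.

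**Figure D3:**
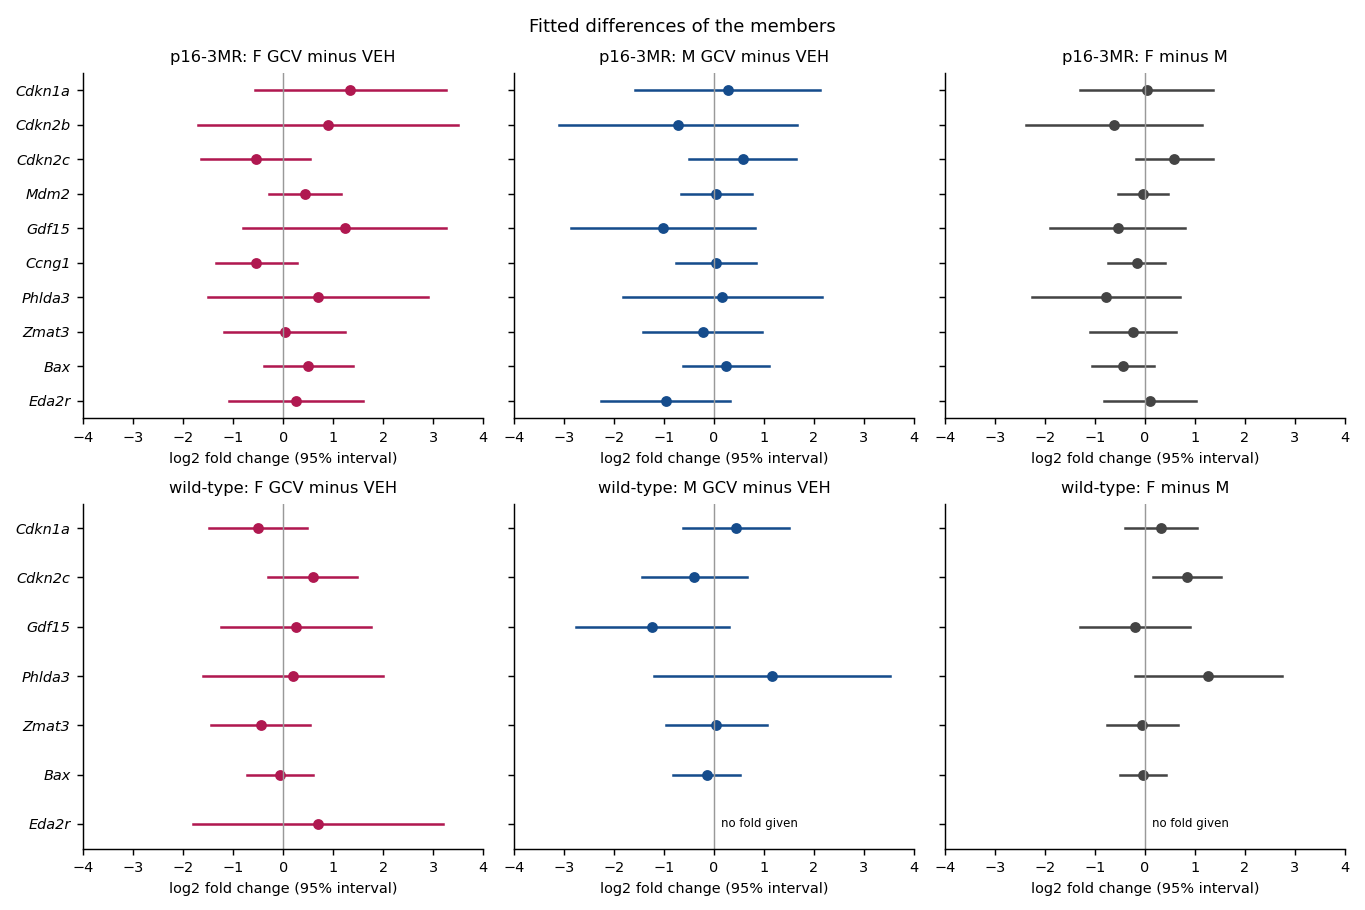
Log2 fold change (horizontal axis) of each gene with its 95% interval from edgeR's fit, in p16-3MR livers (top) and wild-type livers (bottom), for GCV minus VEH in females and in males and for females minus males. Of the intervals drawn, that of Cdkn2c in wild-type females minus males, 0.16 to 1.53, is the only one that leaves out 0, and Eda2r has 1 count in wild-type VEH-treated males, so no fold is given in the panels that use that group.

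Single livers carried much of the spread. Among VEH-treated males, liver 24 was the highest for 8 of the 10 genes, where 37.6% of the 12409 genes with a mean of at least 10 counts were highest in that liver. Among GCV-treated males, liver 32 was the highest for 7 of 10 (41.6% of genes) and liver 34 the lowest for 9 of 10 (39.6%). Among GCV-treated females, liver 31 was the highest for 6 of 10 (31%) and liver 35 the lowest for 7 of 10 (29%). Other markers moved with these livers. The 7 Kupffer and macrophage markers summed to 4029 TMM CPM in liver 32 and 2068 in liver 24, against 121 to 1205 in the other 10 livers, and hepatocyte markers were lowest in the same pair. In GCV-treated females the Kupffer and macrophage sum was 365, 205 and 121 TMM CPM in livers 31, 33 and 35, below or within the 351 to 972 of VEH-treated females. The 7 hepatic stellate markers summed to 255 to 328 TMM CPM in GCV-treated and 335 to 400 in VEH-treated females, without overlap. Of single genes, 13.3% did not overlap in that comparison, and no such share is given for summed lists. The stellate sum was highest in liver 32, at 1345, and liver 24, at 561. The 5 cholangiocyte markers summed to 142 TMM CPM in liver 31, against 34.7 to 98.0 in the other females. The 6 proliferation markers summed to 271 TMM CPM in liver 24, 238 in liver 32 and 250 in liver 30, and to 23.8 to 158 in the other livers. Their part in the levels of the 10 genes was not tested, and in bulk tissue fewer cells of a type and less RNA per cell cannot be told apart. Without liver 32, the log2 fold change of Cdkn1a in males was -0.77, against 0.27 with it.

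Other genes of the p53 pathway, 37 of a list of 38 in the p16-3MR table, gave no adjusted call in females with edgeR and 1 with DESeq2. At an unadjusted p under 0.05, 5 were higher and 3 lower after GCV, where 7.37% of all genes were past it (1098 higher and 505 lower), and the median log2 fold change of the 36 with a fold was 0.019. The 2 with the smallest p were Aen and Ccng2. Aen, an exonuclease induced by p53 in apoptosis, was 14.1 to 31.8 TMM CPM in GCV-treated females against 7.09 to 10.8 after VEH. Its log2 fold change was 1.43 ± 0.35 (edgeR, adjusted p = 0.646). Ccng2, cyclin G2, was 1.84 to 5.01 TMM CPM in GCV-treated females against 8.04 to 11.1 after VEH. Its log2 fold change was -1.63 ± 0.46 (edgeR, adjusted p = 0.646). Neither gene's groups overlapped in females, as was so for 13.3% of all genes. In males Aen was 11.5 to 13.2 TMM CPM after GCV and 12.7 to 14.7 after VEH, and the female minus the male response of Aen was 1.59 ± 0.49 (edgeR, adjusted p = 0.976). For that difference 3 of the 37 were higher and 1 lower at an unadjusted p under 0.05, beside 3.78% of all genes, with Cgref1, a growth regulator with EF hands, second to Aen (3.11 ± 1.09). DESeq2's call was Aen (adjusted p = 0.020, against 0.020 to 0.876 over the alternatives). In males 0 of the 37 passed either threshold. The genes nearest to it were Trp53inp1, a stress protein that activates p53 (-0.60 ± 0.34), and Gadd45a, a growth arrest gene (0.91 ± 0.54). Single livers moved both. Trp53inp1 was -0.96 without liver 30 and -0.45 without liver 32, and Gadd45a was 0.365 without liver 34 and 1.26 without liver 32.

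Other inhibitors and partners of the cyclin-dependent kinases, all 20 of a list, had 0 adjusted calls in p16-3MR females and males with edgeR. In females 1 was lower at an unadjusted p under 0.05, Rbl2, the pocket protein p130, at 11.6 to 30.5 TMM CPM after GCV and 31.98 to 36.1 after VEH (log2 fold change -0.89 ± 0.39, edgeR adjusted p = 0.667). Its value was -0.64 without liver 31 and -1.52 without liver 35. Rb1, the retinoblastoma protein, came next at -1.08 ± 0.51. The median of those with a fold, 19 in each comparison, was -0.18 in females and 0.36 in males, beside -0.012 and 0.043 over all genes with one. Their median for the difference between the sexes was -0.56, with the smallest p for Ccna2, cyclin A2 (-3.30 ± 1.64), and Ccnd2, cyclin D2 (-2.34 ± 1.26), both with an edgeR adjusted p of 0.976. In males the nearest were Ccnd3, cyclin D3 (0.59 ± 0.39), and Rbl2 (-0.54 ± 0.39). There limma-voom called 1 gene of the list, neither Ccnd3 nor Rbl2, beside 145 of all 21755 genes.

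Gene labels of the wild-type table have lost 9 of the small letters, so that different symbols can end up spelled alike, and a label was used only where it could come from 1 symbol. This was so for Cdkn1a, Cdkn2c, Gdf15, Phlda3, Zmat3, Bax and Eda2r. Cdkn2b, Mdm2 and Ccng1 have labels that fit 3, 3 and 14 symbols and were not used here. Cdkn2a was looked for too, and no label there could be read as Cdkn2a. Cdkn1a was 4.07, 1.44 and 3.65 TMM CPM in GCV-treated females (livers 4, 5 and 6) and 6.36, 3.76 and 3.06 TMM CPM in VEH-treated females, from 5 to 37 counts. In males it was 2.52, 1.85 and 6.41 TMM CPM after GCV and 2.13, 2.19 and 3.29 TMM CPM after VEH. The groups overlapped in both sexes, and the highest and lowest of the 12 livers differed 4.46-fold. The tables were normalized separately, so these levels are not set against those of p16-3MR livers.

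**Figure D4:**
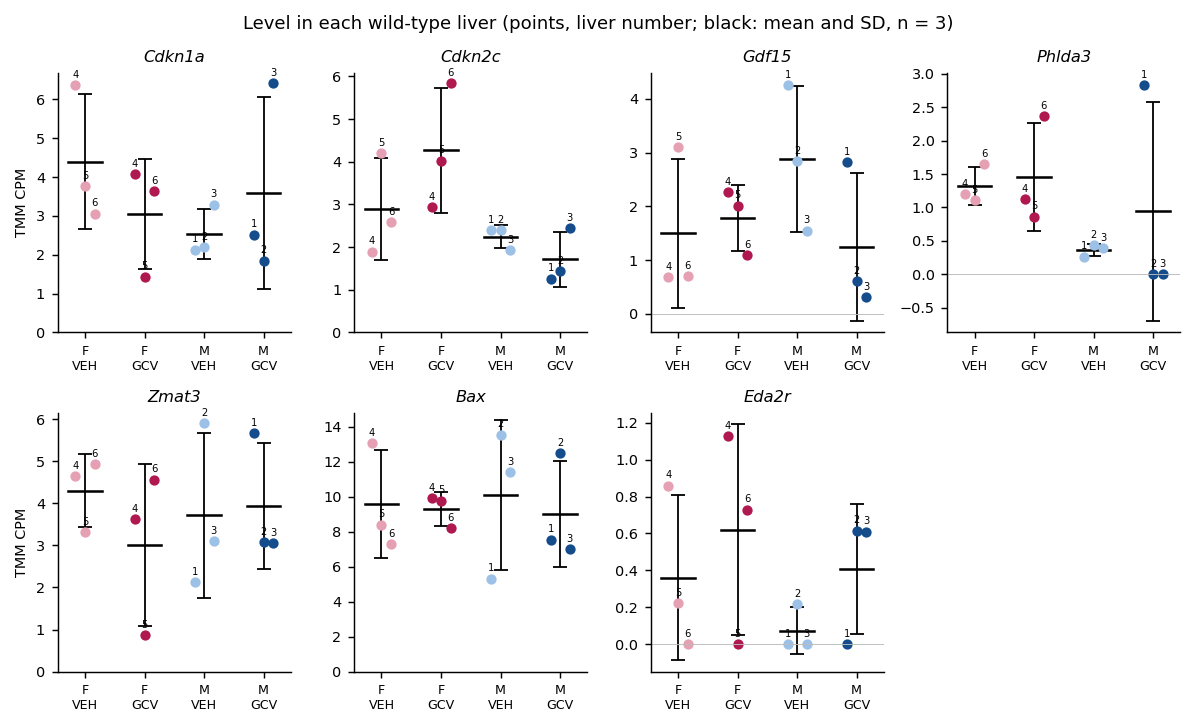
Level of the 7 genes that could be read in wild-type livers, in TMM CPM (vertical axes, linear), with 1 point per liver labelled with its number and the mean and SD of 3 livers in black. Treated and control livers overlap for each gene in both sexes, and Cdkn2c is 1.89 to 5.84 TMM CPM in females and 1.26 to 2.44 in males.

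Bax was 9.94, 9.78 and 8.21 TMM CPM in GCV-treated and 13.1, 8.41 and 7.29 in VEH-treated wild-type females. In males Bax was 7.55, 12.5 and 7.02 TMM CPM after GCV and 5.32, 13.6 and 11.4 after VEH. Its 95% intervals for GCV were among the narrowest, -0.72 to 0.59 in females and -0.81 to 0.52 in males on the log2 scale. Zmat3 had 3 to 27 counts per liver and log2 fold changes of -0.45 ± 0.47 in females and 0.047 ± 0.49 in males. Gdf15 had 10, 7 and 6 counts in GCV-treated and 4, 14 and 3 in VEH-treated females. In males it had 9, 3 and 1 counts after GCV and 16, 13 and 8 after VEH. Its male log2 fold change, -1.23 ± 0.74, had the smallest p in males of the 6 genes for which a fold is given (edgeR adjusted p = 0.889, against 0.665 to 1 over the alternatives), and was -2.48 without GCV-treated male 1. Phlda3 had 9, 0 and 0 counts in GCV-treated males and 1, 2 and 2 in VEH-treated males, and 3 to 13 in females. Eda2r had 0 to 5 counts, with 9 of 12 livers at or under the floor.

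After GCV, 0 of the 7 genes passed an adjusted or an unadjusted p under 0.05 in edgeR in wild-type females, where 0.00791% and 4.56% of all genes did, and 0 had groups that did not overlap (10% of all genes). In wild-type males the count was also 0 on each, beside 0%, 5.06% and 8.85% of all genes. For the difference between the sexes it was 0 at both thresholds, beside 0.00791% and 4.45%. limma-voom called 0 of the 7 in these comparisons. DESeq2 called 0 in males and 0 for the female minus the male response. In females it gave none of the 7 an adjusted p, so no call was possible there. The median log2 fold change was 0.19 in females, with 4 genes higher and 3 lower, and, without Eda2r, -0.051 in males, with 3 higher and 3 lower, beside -0.0018 and 0.0052 over all genes with a fold. Over the 4 genes with a mean of at least 10 counts the female median was below 0, at -0.26. Of 38 further p53 pathway genes 17 could be read, with no adjusted call in edgeR and at an unadjusted p under 0.05 only Dcxr (0.33 ± 0.13) and Ei24 (0.28 ± 0.12), both higher in females after GCV. In males the nearest were Trp53inp1 (0.40 ± 0.20) and Ercc5 (0.39 ± 0.20) (edgeR adjusted p = 0.889 for both). The 8 readable genes of the kinase list had no adjusted call in edgeR after GCV. The list's smallest p was that of Ccnd1, cyclin D1, the partner that brings Cdk4 and Cdk6 into action. Ccnd1 was 138 to 169 TMM CPM in GCV-treated females against 199 to 277 after VEH, with a log2 fold change of -0.66 ± 0.15 (edgeR adjusted p = 0.25). In males it was 30.8 to 50.9 TMM CPM after GCV and 38.7 to 44.98 after VEH. E2f1, the transcription factor that Rb holds back, was the other with p under 0.05 in females (-1.0 ± 0.43, edgeR adjusted p = 1). Under the alternatives the adjusted p of Ccnd1 ran from 0.000104 to 0.794, and it was under 0.05 with DESeq2 (0.0272), a fit of only the 6 female livers (0.00275), the replicate block (0.000104) and without VEH-treated female 5 (0.0394). In wild-type males Cdk6 (0.34 ± 0.16) alone of the list was past the unadjusted threshold in edgeR (adjusted p = 0.889), where 5.06% of all genes were. Cdkn2d, the p19 inhibitor (-0.70 ± 0.45), came next without passing it. The difference between the sexes for Ccnd1 and E2f1 was -0.73 ± 0.22 and -1.11 ± 0.61 (edgeR adjusted p = 0.982 for both). The p53 genes with the smallest p for that difference were Ei24 (0.37 ± 0.17) and Dcxr (0.37 ± 0.19).

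Between the sexes, taken over both treatments, the fitted level of Cdkn2c was higher in females in both tables under TMM, in p16-3MR livers not under total counts (where the median of all genes moved too, as given with the value), and 0 of the genes were called. In wild-type livers Cdkn2c was 2.94, 4.03 and 5.84 TMM CPM in GCV-treated and 1.89, 4.20 and 2.59 in VEH-treated females. It was 1.26, 1.44 and 2.44 TMM CPM in GCV-treated and 2.40, 2.40 and 1.93 in VEH-treated males. The log2 difference was 0.84 ± 0.33 (95% interval 0.16 to 1.53, edgeR adjusted p = 0.138), the only one of the 7 at an unadjusted p under 0.05, where 7.94% of all wild-type genes passed the adjusted and 20.1% the unadjusted threshold. Its adjusted p ran from 0.0107, with scaling by total counts, to 0.349. limma-voom called 0 of the 7 and DESeq2 0 of the 6 to which it gave an adjusted p, all but Eda2r. At an unadjusted p under 0.05 limma-voom had Cdkn2c and Phlda3. The 20.1% is edgeR's share, and that of limma-voom is not given here, so this count has no baseline. Phlda3 was higher in females in the fit by 1.27 ± 0.70 (edgeR adjusted p = 0.336). Without GCV-treated male 1, which held all 9 counts of its group, Phlda3 was called, but that group was then at 0 counts and no fold is given. In p16-3MR livers Cdkn2c was 3.52 to 7.67 TMM CPM in the 6 females and 1.96 to 6.63 in the 6 males, a difference of 0.59 ± 0.36 (edgeR adjusted p = 0.719). With total counts that difference of Cdkn2c was -0.055, where the median of all genes was -0.58 (-0.075 under TMM), and with limma-voom 0.83 (adjusted p = 0.197). None of the 10 genes passed either threshold in p16-3MR livers, where 0.303% of all genes passed the adjusted and 7.05% the unadjusted threshold in edgeR.

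Of the 8 readable genes of the kinase list, 3 were called between wild-type females and males, and all were higher in females, beside 7.94% of all wild-type genes (492 higher and 512 lower). Ccnd1 was 138 to 277 TMM CPM in females and 30.8 to 50.9 in males, a log2 difference of 2.21 ± 0.11 (edgeR, adjusted p = 2.98e-12). Cdkn1c, which encodes the inhibitor p57, was 2.59 to 5.53 TMM CPM in females and 0.821 to 2.66 in males, a difference of 1.49 ± 0.34 (edgeR, adjusted p = 0.00618). Ccnd2 was 37.4 to 51.1 TMM CPM in females and 31.1 to 40.6 in males, a difference of 0.39 ± 0.10 (edgeR, adjusted p = 0.0197), and this call was lost without any one of GCV-treated female 6, VEH-treated female 5, GCV-treated male 1 and VEH-treated male 3 (adjusted p 0.0557 to 0.0646). In p16-3MR livers the fitted difference of Ccnd1 was 1.62 ± 0.58 (edgeR adjusted p = 0.664), and its level ran from 17.8 to 347 TMM CPM in the GCV-treated females alone. That of Ccna2 was -1.82 ± 0.82 (edgeR adjusted p = 0.686). Of the p53 list, 0 of 17 wild-type and 0 of 37 p16-3MR genes were called between the sexes in edgeR. Those with the smallest p were Apaf1 (1.56 ± 0.53, adjusted p = 0.0807), of the apoptosome, and Slc19a2 (0.25 ± 0.11), a thiamine transporter, in wild-type livers, and Ccng2 (-0.89 ± 0.31) and Trp53cor1, a noncoding RNA induced by p53 with too few counts for a fold, in p16-3MR livers.

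The genes whose TMM log2 CPM went most closely with Cdkn1a over the 12 p16-3MR livers, of 12395 compared, were Leng8 (Pearson r = 0.942, Spearman rho = 0.874), Camta2 (0.935 and 0.937), Cc2d1a (0.906 and 0.944), Plekha1 (0.903 and 0.818) and Arl2bp (0.894 and 0.825). As the highest of many, these values carry no p. Livers 35 and 33 lie farthest from the median of Cdkn1a, and without both r was 0.800, 0.879, 0.744, 0.947 and 0.790. Of the other 9 genes described here, Gdf15 (r = 0.601), Mdm2 (0.560), Eda2r (0.545) and Bax (0.542) went with Cdkn1a most closely and Ccng1 least (-0.323). That order did not hold without livers 35 and 33, where Bax (0.796), Zmat3 (0.732, from 0.0731 with them) and Eda2r (0.640) came first, and Gdf15 was at 0.519, Mdm2 at 0.477 and Ccng1 at 0.367. The livers share scaling, so depth and liver 33's TMM factor enter both sides of each correlation. In the 12 wild-type livers the closest of 6779 genes were Tmem204 (r = 0.800, rho = 0.776), Rilpl1 (0.785 and 0.790), Ccdc117 (0.774 and 0.643), Lta4h (0.758 and 0.720) and Gtf2h3 (0.736 and 0.776), and without GCV-treated female 5 and GCV-treated male 3 their r was 0.616 to 0.709. Of the other 6 genes read there, r with Cdkn1a ran from -0.480 for Gdf15 to 0.580 for Eda2r, which had at most 5 counts.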

How the data were processed

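Liver RNA of 24 mice was sequenced from the 3′ end with Smart-3SEQ. According to the submitters' processing notes and the methods, the authors used FastQC 0.11.9, Trim Galore 0.6.10, Salmon 1.10.3 (build mm10) and tximport and left out genes with under 3 reads. What the authors deposited are expected counts, that is estimated counts per gene, held as whole numbers without scaling. Their own comparisons used DESeq2. The 2 tables, 12 livers each, were read with 21698 of 21755 identifiers and 10496 of 12643 labels matched to 1 symbol. No column was left out.

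Counts were analysed in R 4.3.3 with edgeR 4.0.16: TMM factors, a mean for each group fitted in all 12 livers of that table, and the quasi-likelihood test. P-values were adjusted by Benjamini and Hochberg's method across every gene in the table, and genes were called when the adjusted p was under 0.05. log2 CPM used a prior count of 2. No fold is given, nor used in a median, where a group compared had 3 counts or fewer in all. Comparisons were GCV minus VEH within each sex, the difference between these, and females minus males over both treatments. The test was run on simulated data with 200 changed genes, and how many it recovered is not given here. The common biological coefficient of variation was 55.8% in p16-3MR and 16.6% in wild-type livers. Alternatives were DESeq2 1.42.0, limma-voom (limma 3.58.1), DESeq2's size factors, filterByExpr, the 6 livers of a sex, a replicate block and each liver left out, and, after the data were seen, total counts in place of TMM.

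The 10 genes and the lists were chosen with earlier results of these data known. All 10 genes are described, and from each list the genes called (at most 6), or the 2 with the smallest p. Depth was 3084517 to 7160172 counts per liver, and whether PCR copies were removed is not given in the sources used here. The labels and the methods give different GCV doses, and the labels' dose is printed.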

Additional observations from a re-analysis of the deposited data

How the results depend on the processing

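Of the genes described, 10 in p16-3MR and 7 in wild-type livers, 0 were called after GCV in any setting that gave them an adjusted p. DESeq2 gave none to Cdkn2b and Phlda3 in p16-3MR females and to any of the 7 in wild-type females, and filterByExpr left out Cdkn2b and Phlda3 in p16-3MR and Phlda3 and Eda2r in wild-type livers. The number of all genes called moved with the tool. For GCV in p16-3MR females it was 0 with edgeR, 90 with DESeq2, 7 with limma-voom, 3 with only the 6 livers of that sex and 0 to 1 with each liver left out (1 without VEH-treated male 24). In p16-3MR males it was 0, with 5 by DESeq2, 145 by limma-voom and 0 to 1 with each liver left out (1 without GCV-treated male 32 and 1 without VEH-treated male 24). For the difference between those responses it was 0, with 3 by DESeq2 and 1 by limma-voom, and for females minus males in p16-3MR livers 66, with 196 by DESeq2 and 215 by limma-voom. In wild-type females GCV gave 1 of all genes, with 17 by DESeq2, 3 by limma-voom, 0 after filterByExpr, 44 with 6 livers and 0 to 12 with each liver left out. In wild-type males it gave 0, with 1 by DESeq2 and 0 to 46 with each liver left out (46 without VEH-treated male 1). The difference between the wild-type responses gave 1, with 0 after filterByExpr and 0 to 17 with each liver left out. Females minus males in wild-type livers gave 1004 of all genes and, with total counts, 3652, where the median of all genes moved by 0.353. Of the members, 1 was called there with total counts (Cdkn2c) and 0 to 1 with each liver left out (Phlda3 without GCV-treated male 1). The cause of these differences was not tested.

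Several fitted log2 values of the 10 genes, none of them called, changed sign. Total counts moved the median of all genes in p16-3MR livers to -0.578 for GCV in females and to -0.578 for females minus males, and in wild-type livers to 0.353 for females minus males, so a sign change under that scaling is not a change relative to the other genes unless the value also passes that median, as Cdkn1a did for females minus males in p16-3MR livers. For GCV in p16-3MR females these were Zmat3 after filterByExpr (-0.00898) and, with total counts, Mdm2 (-0.243), Zmat3 (-0.43), Bax (-0.107) and Eda2r (-0.418). In p16-3MR males they were Mdm2 (-0.311) and Ccng1 (-0.0689) with limma-voom and Zmat3 (0.0214) with total counts. For females minus males in p16-3MR livers they were Cdkn1a (-0.226), Mdm2 (0.227) and Ccng1 (0.0333) with limma-voom, and Cdkn1a (-0.908), Cdkn2c (-0.0549) and Eda2r (-0.558) with total counts. In wild-type livers they were Gdf15 (0.149), Zmat3 (0.275) and Bax (0.277) with total counts. With each liver left out in turn, and no fold given where that left a group with 3 counts or fewer, the ranges that crossed 0 were, for GCV in p16-3MR females, -0.706 to 0.318 for Zmat3. In p16-3MR males they were -0.77 to 0.741 for Cdkn1a, -0.113 to 0.201 for Mdm2, -0.2 to 0.154 for Ccng1, -0.274 to 0.988 for Phlda3, -0.718 to 0.104 for Zmat3 and -0.0777 to 0.57 for Bax. For females minus males in p16-3MR livers they were -0.282 to 0.469 for Cdkn1a, -0.164 to 0.0661 for Mdm2 and -0.0501 to 0.273 for Eda2r. For GCV in wild-type females they were -0.377 to 0.427 for Phlda3, -0.224 to 0.238 for Bax and -0.124 to 1.3 for Gdf15. In wild-type males they were -0.258 to 0.792 for Cdkn1a, -0.286 to 0.541 for Zmat3 and -0.494 to 0.107 for Bax. For females minus males in wild-type livers they were -0.262 to 0.198 for Zmat3, -0.186 to 0.13 for Bax and -0.715 to 0.436 for Gdf15. Of 281 values of these genes under the other alternatives, 263 kept their direction and side of the threshold, as did 524 of 575 with 1 liver left out.

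Replicate numbers are shared between the GCV and VEH groups of wild-type mice. Same-numbered livers correlated at -0.045, -0.057 and 0.00178 in females and at 0.196, 0.283 and -0.0663 in males. Differently numbered livers ran from -0.045 to 0.0847 in females and from -0.349 to 0.17 in males. What the shared numbers stand for was not tested. With the replicate block the number of all genes called was 106 in wild-type females, 68 in males and 79 for the difference between them, and 0 members were called.

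Counts of 3 or fewer in most livers limit Cdkn2a, Cdkn2b and, in wild-type livers, Eda2r.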
